A study of Mus musculus with 12 samples.

Results

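The genes described here are 5 of the 20819 genes measured in mouse kidney tubuloids, chosen by name: Atp1b1, Slc12a2, Wnk1, Stk39 and Oxsr1. Each symbol matched 1 row, and all 5 genes passed the filter on low values (at least 4 of the libraries at 10 or above). Tubuloids are clusters of tubular epithelial cells grown here in Matrigel from the renal cortex of 4 wildtype mice. Every culture was wildtype and was taken after 12 h, in 3 groups of 4 libraries: myoglobin with 100 nM dexamethasone, myoglobin alone, and vehicle. The design text names myoglobin, the haem protein of muscle, as the agent that injures the tubule, and dexamethasone is a synthetic glucocorticoid. The mice's age and sex and the dose of myoglobin are not given in the sources used here. The labels number the libraries 1 to 4 in each group without tying a number to a mouse, so p-values measure only the spread between these samples, which may be technical.

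The members lie on separate chromosomes of the mm10 build. Atp1b1 (ENSMUSG00000026576) is on chromosome 1 from 164437109 to 164458355 on the minus strand. Slc12a2 (ENSMUSG00000024597) is on chromosome 18 from 57878678 to 57946821 on the plus strand. Wnk1 (ENSMUSG00000045962) is on chromosome 6 from 119923969 to 120038672, Stk39 (ENSMUSG00000027030) on chromosome 2 from 68210445 to 68472268, and Oxsr1 (ENSMUSG00000036737) on chromosome 9 from 119238432 to 119322427, all on the minus strand. The values are per whole gene. Wnk1 has 26 annotated transcripts in GENCODE M21, and the full-length kinase and the short kidney-specific form without most of the kinase domain, known from the distal convoluted tubule, were not separated. Atp1b1 overlaps Nme7 on the opposite strand, which had a mean value of 254.2. The libraries were stranded per the labels, but the strand setting of the counting is not given in the sources used here, so reads of this pair may not be fully separated.

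The sodium pump sits in the basolateral membrane of tubule cells and exports sodium in exchange for potassium, which sets the gradient that other transporters use. Its alpha subunit carries out the transport, and its beta subunit, here Atp1b1, is needed for the pump to fold and reach the membrane. Slc12a2 encodes NKCC1, a cotransporter that carries sodium, potassium and chloride together into the cell and takes part in chloride secretion and in recovery of cell volume. The WNK kinases, of which Wnk1 is widely expressed, respond to chloride and osmotic stress by phosphorylating the kinases SPAK and OSR1, encoded by Stk39 and Oxsr1. SPAK and OSR1 in turn phosphorylate and activate NKCC1 and its distal tubule relative, the thiazide-sensitive cotransporter Slc12a3. The values below are RNA levels and hold nothing on phosphorylation.

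The promoters of Atp1b1 and Wnk1 are shown because both genes rose with both agents over vehicle, as Slc12a2 also did. Promoter windows were available for 4 of the 5 members, without Slc12a2. The windows shown are RefSeq's on GRCm38.p6, from 250 bases before to 50 bases after the annotated start, read 5′ to 3′ on the gene's strand. Capitals mark the GC box, GGGCGG or its reverse complement CCGCCC, the classical Sp1 site. The Atp1b1 window is chr1:164458306-164458605 and the Wnk1 window is chr6:120038606-120038905, both on the minus strand.
Atp1b1: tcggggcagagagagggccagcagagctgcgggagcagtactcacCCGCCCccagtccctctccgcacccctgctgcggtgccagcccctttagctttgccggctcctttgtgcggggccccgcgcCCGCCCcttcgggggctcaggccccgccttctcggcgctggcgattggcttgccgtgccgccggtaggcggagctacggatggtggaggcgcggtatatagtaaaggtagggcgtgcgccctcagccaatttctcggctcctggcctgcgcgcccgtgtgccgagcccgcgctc
Wnk1: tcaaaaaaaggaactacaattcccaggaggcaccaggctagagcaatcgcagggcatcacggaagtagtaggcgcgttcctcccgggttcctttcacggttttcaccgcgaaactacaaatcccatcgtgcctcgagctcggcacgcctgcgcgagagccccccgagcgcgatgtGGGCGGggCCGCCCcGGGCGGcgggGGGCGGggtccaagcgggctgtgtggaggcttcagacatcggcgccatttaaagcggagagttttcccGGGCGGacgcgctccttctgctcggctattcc

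The Atp1b1 window held 2 GC boxes, the Wnk1 window 5, the Stk39 window 4 and the Oxsr1 window 1. A GC box was present in 35.7% of the 32851 mouse promoter windows of the same length. The windows of these 4 genes were 71.0%, 63.7%, 80.0% and 62.3% G and C in that order, against a median of 52.7% over all windows. The half-site of the glucocorticoid response element, AGAACA, was not found on either strand of the 4 windows, and so neither was the full element, which holds it and is AGAACA, any 3 bases and then TGTTCT. The full element was found in 0.00913% of all windows and the half-site in 19.0%. The E-box CACGTG, present in 7.15% of windows, and the TATA box TATAAA, present in 13.6%, were also not matched. These are matches of letters in a short window and do not show whether a factor binds there or elsewhere.

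The table holds reads per gene that were scaled by each library's size factor and rounded, called normalised read counts below. The estimated depth was 3.26 to 5.53 M reads in libraries with myoglobin and dexamethasone, 5.28 to 5.92 M reads with myoglobin alone, and 5.51 to 5.87 M reads with vehicle. Replicate 4 of myoglobin and dexamethasone was the shallowest library and had 2179 genes at 0, against 1051 to 1544 in the other 11 libraries. Its values were above those of its group for transcripts densely covered by reads and below them for sparsely covered ones, so the tested changes of the members are given with and without it, and those of other genes where its omission altered a call stated here. A known target of each agent was higher. With dexamethasone added to myoglobin, the glucocorticoid target Fkbp5 rose by 1.19 ± 0.07 (log2, SE), Tsc22d3 by 0.45 ± 0.07 and Per1 by 0.71 ± 0.07. Hmox1, haem oxygenase, rose by 2.01 ± 0.06 with myoglobin over vehicle. Tsc22d3 also rose with myoglobin over vehicle, by 0.36 (limma adjusted p = 0.00229), so its RNA was not raised by dexamethasone only. Fkbp5 (0.10, adjusted p = 0.418) and Per1 (-0.01, adjusted p = 0.912) did not pass in that comparison. Markers of tubular epithelium were present throughout (the 7 markers summed to 8170 to 11493 with both agents, 7449 to 8057 with myoglobin and 8179 to 8338 with vehicle). The 11493 was the sum in replicate 4, which was the highest library of its group for each of the 7. Of 9 proximal tubule markers, 7 are in the table and 4 passed the filter, and the 7 summed to 859 to 1038 with both agents, 1024 to 1087 with myoglobin and 826 to 933 with vehicle. Most of that sum was Slc4a4, the basolateral bicarbonate cotransporter (545 to 659, 617 to 691 and 574 to 642 in the same groups), and Lrp2, the endocytic receptor megalin (288 to 374, 351 to 456 and 216 to 264). Slc34a1, a phosphate transporter, was at 0 to 3 in every library, and Slc5a12 and Slc22a6 are not in the table.

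Per kilobase of exon, the pump's beta subunit was the most abundant member in every group and Wnk1 the least. The length is that of all annotated exons together, which for Wnk1 is 22825 bases over its 26 transcripts and for Atp1b1 3081 bases. The values per kilobase include replicate 4 of both agents. Atp1b1 had 512 ± 94.8 normalised read counts per kilobase with both agents, 435 ± 12.9 with myoglobin and 397 ± 4.37 with vehicle (SD, n = 4 each). Slc12a2 followed with 214 ± 29.3, 189.6 ± 4.53 and 173 ± 5.80 per kilobase in the same groups. Oxsr1 had 127 ± 3.65, 125 ± 4.18 and 121 ± 3.38 per kilobase, above its close relative Stk39, which had 81.0 ± 2.03, 79.3 ± 4.57 and 80.2 ± 3.17. Wnk1 had 68.8 ± 1.61, 67.1 ± 1.32 and 61.9 ± 1.43 per kilobase. The order of the 5 genes was the same in each group, and the ranges of neighbouring genes did not overlap within a group.

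**Figure D1:**
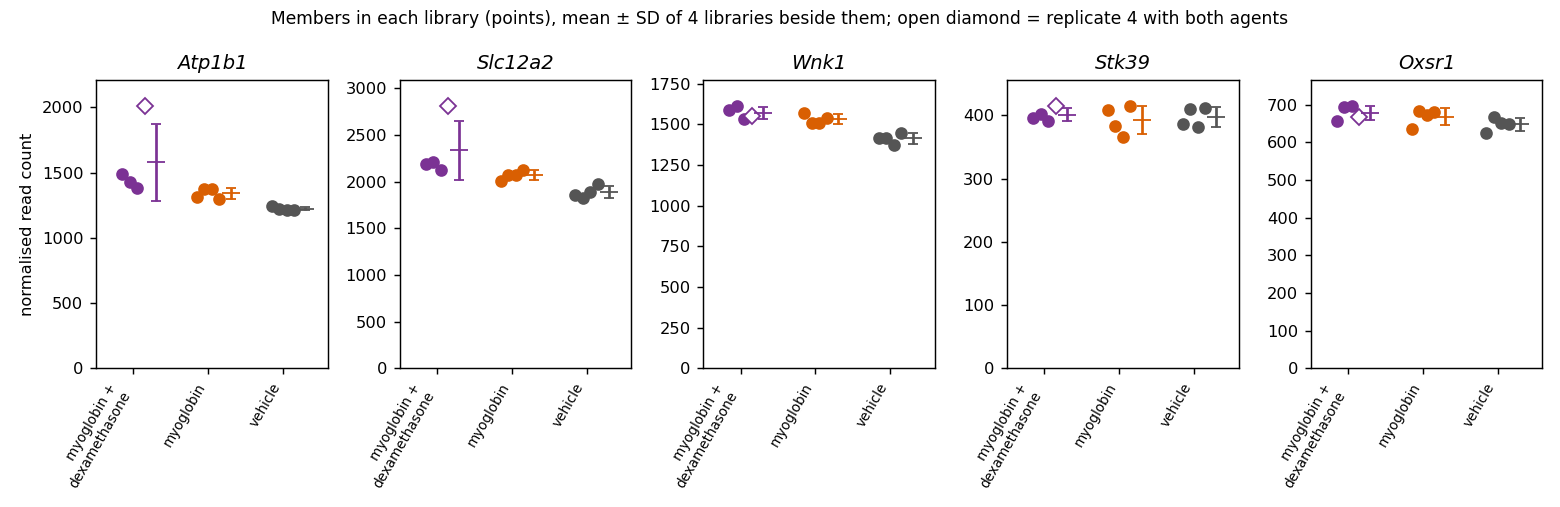
Normalised read counts of the 5 members in each library, in groups of 4 from left to right: myoglobin with dexamethasone, myoglobin and vehicle. Points are libraries, the open diamond is replicate 4 with both agents, and bars are mean ± SD. Atp1b1, Slc12a2 and Wnk1 lie above vehicle in every library with both agents, a separation that 28.6% of all genes showed in one direction or the other, while Stk39 and Oxsr1 overlap in all groups.

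With myoglobin and dexamethasone, 3 of the 5 members rose over vehicle and 0 fell: Atp1b1, Slc12a2 and Wnk1, by 11.0% to 27.3%. By the rule used for every call (limma, Benjamini-Hochberg adjusted p below 0.05 over the 14558 genes tested), 28.6% of all genes were called in this comparison, 13.9% higher and 14.6% lower. Genes called higher were 48.8% of those called, against 37.9% after upper-quartile scaling and 36.9% with equal library totals. Stk39 and Oxsr1 did not pass. For the 3 that rose, all libraries with both agents lay above all vehicle libraries, and in either direction such a separation was found in 28.6% of all genes tested. Without replicate 4 of both agents the same 3 members rose, by 11.5% to 17.0%, with 29% of all genes called, 14.7% higher and 14.3% lower. In bulk RNA, a change in the number of cells of a type and a change in RNA per cell cannot be told apart.

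Atp1b1 had 1491, 1430, 1378 and 2010 normalised read counts in replicates 1 to 4 with myoglobin and dexamethasone, 1316, 1373, 1374 and 1296 with myoglobin, and 1244, 1220, 1216 and 1216 with vehicle. The 3 groups did not overlap, and replicate 4 with both agents stood far above the rest. Of all genes tested, 25% were separated in either direction for myoglobin against vehicle. The share was 13.2% for dexamethasone added and 28.6% for both agents against vehicle. The rise of both agents over vehicle was 0.35 ± 0.09 on the log2 scale (SE, 95% interval 0.17 to 0.53, limma adjusted p = 0.00672). Without replicate 4 it was 0.23 ± 0.03 (adjusted p = 8.89e-05).

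Slc12a2 had 2191, 2211, 2126 and 2811 normalised read counts with myoglobin and dexamethasone, 2009, 2071, 2072 and 2130 with myoglobin, and 1862, 1828, 1886 and 1976 with vehicle. All libraries with either treatment lay above all vehicle libraries, and the 2 treated groups overlapped. Separation from vehicle in either direction was found in 25% of all genes tested with myoglobin and in 28.6% with both agents. NKCC1 RNA rose with both agents over vehicle by 0.30 ± 0.07 (log2, SE, 95% interval 0.15 to 0.45, limma adjusted p = 0.00509). Without replicate 4 the rise was 0.21 ± 0.03 (adjusted p = 0.000145).

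Wnk1 had 1586, 1613, 1530 and 1551 normalised read counts with myoglobin and dexamethasone, 1571, 1508, 1508 and 1538 with myoglobin, and 1418, 1419, 1370 and 1449 with vehicle. Both treated groups lay above vehicle and overlapped each other, and replicate 4 with both agents fell inside the range of its group. Among all genes tested, 25% were separated from vehicle in either direction with myoglobin and 28.6% with both agents. Wnk1 rose with both agents over vehicle by 0.15 ± 0.04 (log2, SE, 95% interval 0.07 to 0.23, limma adjusted p = 0.00547), and by 0.16 ± 0.03 without replicate 4 (adjusted p = 0.000851). After quantile normalization the value was 0.056 and did not pass (adjusted p = 0.351).

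Stk39 and Oxsr1, the kinases downstream of Wnk1, did not pass. Stk39 had 396, 403, 392 and 415 normalised read counts with both agents, 408, 383, 366 and 415 with myoglobin, and 386, 410, 382 and 412 with vehicle. The difference between both agents and vehicle was 0.01 (log2, 95% interval -0.09 to 0.12, limma adjusted p = 0.846), or -0.0011 without replicate 4 of both agents (adjusted p = 0.990), and its 3 groups overlapped. Oxsr1 had 657, 693, 697 and 667 with both agents, 636, 684, 673 and 682 with myoglobin, and 625, 669, 651 and 648 with vehicle. Its difference was 0.07 (95% interval -0.02 to 0.15, limma adjusted p = 0.221) with all libraries and also 0.07 without replicate 4 (adjusted p = 0.154), and its groups overlapped as well.

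Myoglobin alone raised 1 of the 5 members over vehicle, Wnk1, where 18.3% of all genes were called, 8.71% higher and 9.62% lower. Wnk1 rose by 0.11 ± 0.04 (log2, SE, 95% interval 0.04 to 0.19, limma adjusted p = 0.0355), a level 8.29% higher. This call did not survive the 3 other scalings, with 0.094 and adjusted p = 0.0769 after upper-quartile scaling, 0.092 and 0.148 after quantile normalization, and 0.10 and 0.0788 with equal library totals. It was also lost without replicate 1, 2 or 3 of vehicle and without any single myoglobin replicate, where the value stayed between 0.10 and 0.12 and the highest adjusted p was 0.119. Without replicate 4 of both agents, which enters this comparison only through the shared estimate of spread, it was 0.11 with adjusted p = 0.00491.

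Atp1b1 and Slc12a2 differed from vehicle by about as much with myoglobin as Wnk1 did, and whether they passed depended on replicate 4 of the other treated group. The Atp1b1 value was 0.13 ± 0.09 (log2, SE, limma adjusted p = 0.337), and 0.13 ± 0.03 (adjusted p = 0.00424) without that library. The Slc12a2 value was 0.13 ± 0.07 (adjusted p = 0.219), and 0.13 ± 0.03 (adjusted p = 0.00262) without it. Thus 3 of the 5 members rose with myoglobin once that library was left out, when 26.1% of all genes were called, 13.2% higher and 12.8% lower. In both genes all 4 myoglobin libraries lay above all 4 vehicle libraries, a separation found in either direction in 25% of all genes tested. Stk39 (-0.02, 95% interval -0.12 to 0.09, adjusted p = 0.853) and Oxsr1 (0.04, 95% interval -0.04 to 0.13, adjusted p = 0.487) did not pass, nor did they without that library (adjusted p = 0.814 and 0.369).

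**Figure D2:**
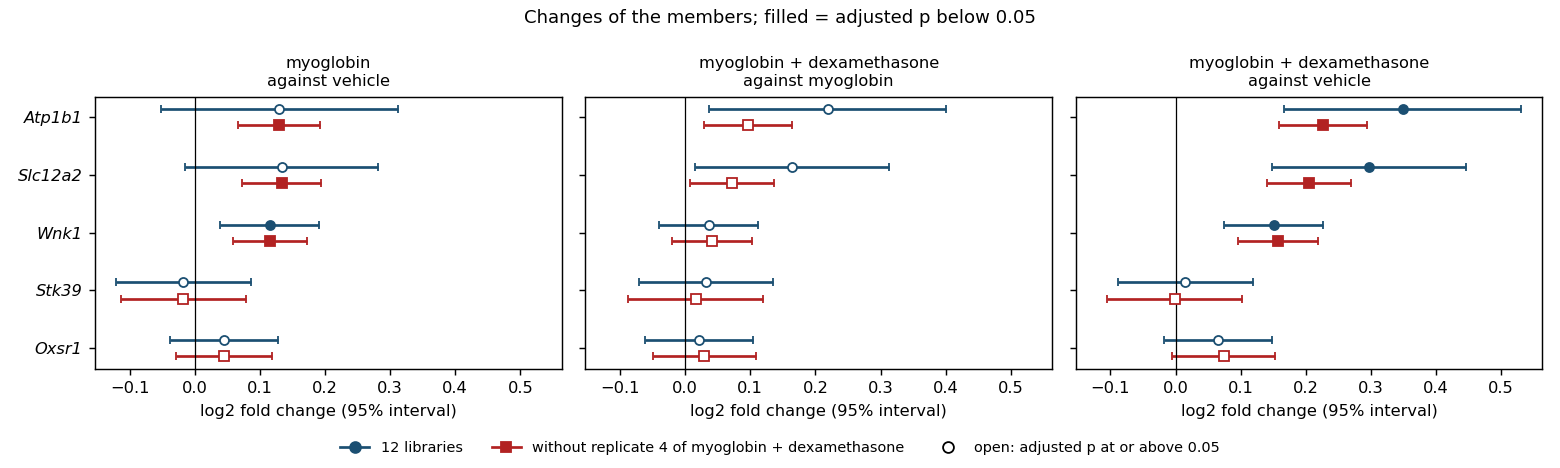
Log2 fold changes of the 5 members with 95% intervals in the 3 comparisons, over 12 libraries (circles) and without replicate 4 of myoglobin with dexamethasone (squares). Filled symbols have an adjusted p below 0.05. Leaving out the library shortens the intervals of Atp1b1 and Slc12a2 and turns their myoglobin values of 0.13 from open to filled.

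Dexamethasone added to myoglobin changed 0 of the 5 members by the limma test, where 6.98% of all genes were called, 3.08% higher and 3.9% lower. Without replicate 4 also 0 of 5 passed, where 8.82% were called, 4.04% higher and 4.78% lower. Before adjustment 2 members, Atp1b1 and Slc12a2, had a p below 0.05, as did 3226 of the 14558 genes tested. Atp1b1 differed by 0.22 ± 0.09 (log2, SE, 95% interval 0.04 to 0.40, limma adjusted p = 0.146) with all libraries and by 0.10 ± 0.03 (adjusted p = 0.0753) without replicate 4. All 4 libraries with both agents lay above all 4 myoglobin libraries, a separation found in 13.2% of all genes. Slc12a2 differed by 0.16 ± 0.07 (adjusted p = 0.183) and by 0.07 ± 0.03 (adjusted p = 0.171) without replicate 4. For Wnk1 the value was 0.04 (95% interval -0.04 to 0.11), for Stk39 0.03 (95% interval -0.07 to 0.14) and for Oxsr1 0.02 (95% interval -0.06 to 0.10), with limma adjusted p between 0.592 and 0.789, and between 0.427 and 0.885 without replicate 4. The 3 comparisons share libraries, so these values are not independent of those against vehicle.

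Replicate 4 of both agents moved with how densely a transcript was covered. Atp1b1, at a mean of 0.437 estimated reads per exonic base, was 0.49 (log2) higher in that library than in the other 3 of its group, and the 243 genes of like coverage had a median of 0.41 there. Slc12a2, at 0.188 reads per base, was 0.37 higher, against a median of 0.22. Wnk1, at 0.0655 reads per base, was 0.02 lower, the median of its like. Stk39 was 0.06 higher, against a median of 0.01. Oxsr1 was 0.03 lower, where genes of like coverage had a median of 0.11 higher and 10.3% of them lay below it. When the libraries were centred within 60 bins of coverage, a step added after the data were seen, Atp1b1 rose with both agents over vehicle by 0.14 (limma adjusted p = 0.000661), Slc12a2 by 0.18 (0.000822) and Wnk1 by 0.18 (0.000167). Their order by size therefore depended on this step, and their direction did not. Under it Atp1b1 also passed with myoglobin over vehicle, at 0.083 (adjusted p = 0.0314), and Slc12a2 did not, at 0.092 (0.0709).

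**Figure D3:**
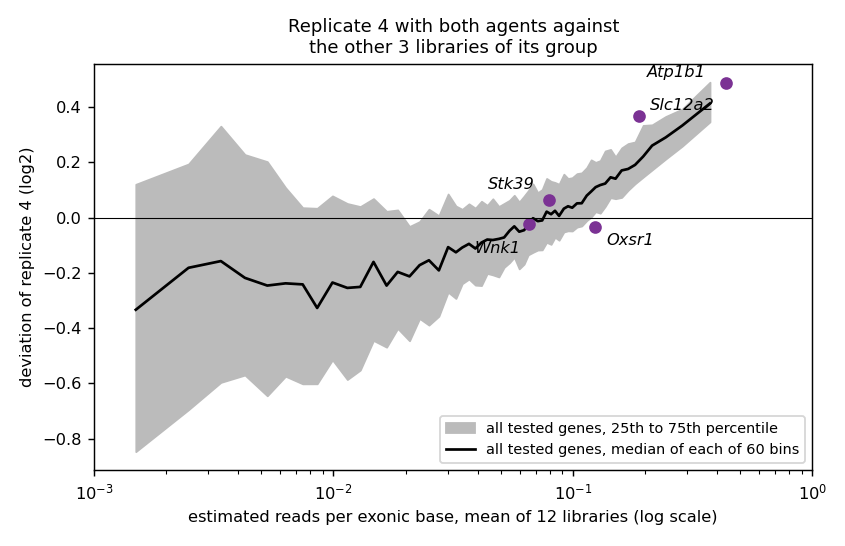
Deviation of replicate 4 with both agents from the mean of the other 3 libraries of its group (log2, y axis) against estimated reads per exonic base (x axis, log scale). The line is the median and the band the 25th to 75th percentile of all tested genes in 60 bins, and named points are the members. The line climbs to 0.41 in the densest bin, where Atp1b1 lies at 0.49.

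The other ubiquitous beta subunit of the pump, Atp1b3, had 633, 609, 573 and 781 normalised read counts with both agents, 604, 620, 624 and 608 with myoglobin, and 628, 594, 599 and 601 with vehicle. Replicate 4 with both agents was again the highest library, and the 3 groups overlapped. Atp1b3 differed from vehicle by 0.09 (log2, limma adjusted p = 0.353) with both agents and by 0.02 (adjusted p = 0.880) with myoglobin, and did not pass.

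The RNAs of the downstream kinases were set against each other within each library. Scaling by 1 factor per library leaves such a ratio nearly unchanged. Quantile normalization can change it, as can the dependence of replicate 4 with both agents on coverage. In that library the median deviation of genes of like coverage was 0.01 for Stk39 and 0.11 for Oxsr1. The log2 ratio of Stk39 to Oxsr1 was -0.76 ± 0.06 with both agents, -0.77 ± 0.11 with myoglobin and -0.70 ± 0.05 with vehicle (SD, n = 4 each). Exact two-sided permutation p-values were 0.257 for both agents against vehicle, 0.314 for myoglobin against vehicle and 0.857 for both agents against myoglobin, where the smallest that 4 against 4 allows is 0.0286. After adjustment over all ratio tests made they were 0.471 or higher. The ratio of the SPAK and OSR1 RNAs overlapped between all groups.

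Of 10 tested genes of the sodium pump list, 0 rose and 3 fell with myoglobin over vehicle, where 8.71% of all genes were called higher and 9.62% lower, with a median of -0.23 (log2) against 0.00 over all genes tested. Atp1b2, a beta subunit known from glia, fell by 1.79 ± 0.29 (log2, SE, limma adjusted p = 0.000389) at low normalised read counts, 7 to 10 with myoglobin and 26 to 37 with vehicle, and Fxyd4, a regulator of the pump in the collecting duct, fell by 0.56 ± 0.11 (adjusted p = 0.0021). Adding dexamethasone to myoglobin gave 1 rise and 0 falls in this list, and both agents against vehicle gave 3 rises and 4 falls (medians 0.07 and -0.20, against 0.01 and 0.00 over all genes). Over all genes, 3.08% were called higher and 3.9% lower with dexamethasone added, and 13.9% and 14.6% with both agents over vehicle. Without replicate 4 of both agents the counts were 2 and 3 with myoglobin, 1 and 0 with dexamethasone added, and 4 and 5 for both agents against vehicle. The shares of all genes called higher and lower were then 13.2% and 12.8%, 4.04% and 4.78%, and 14.7% and 14.3%.

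**Figure D4:**
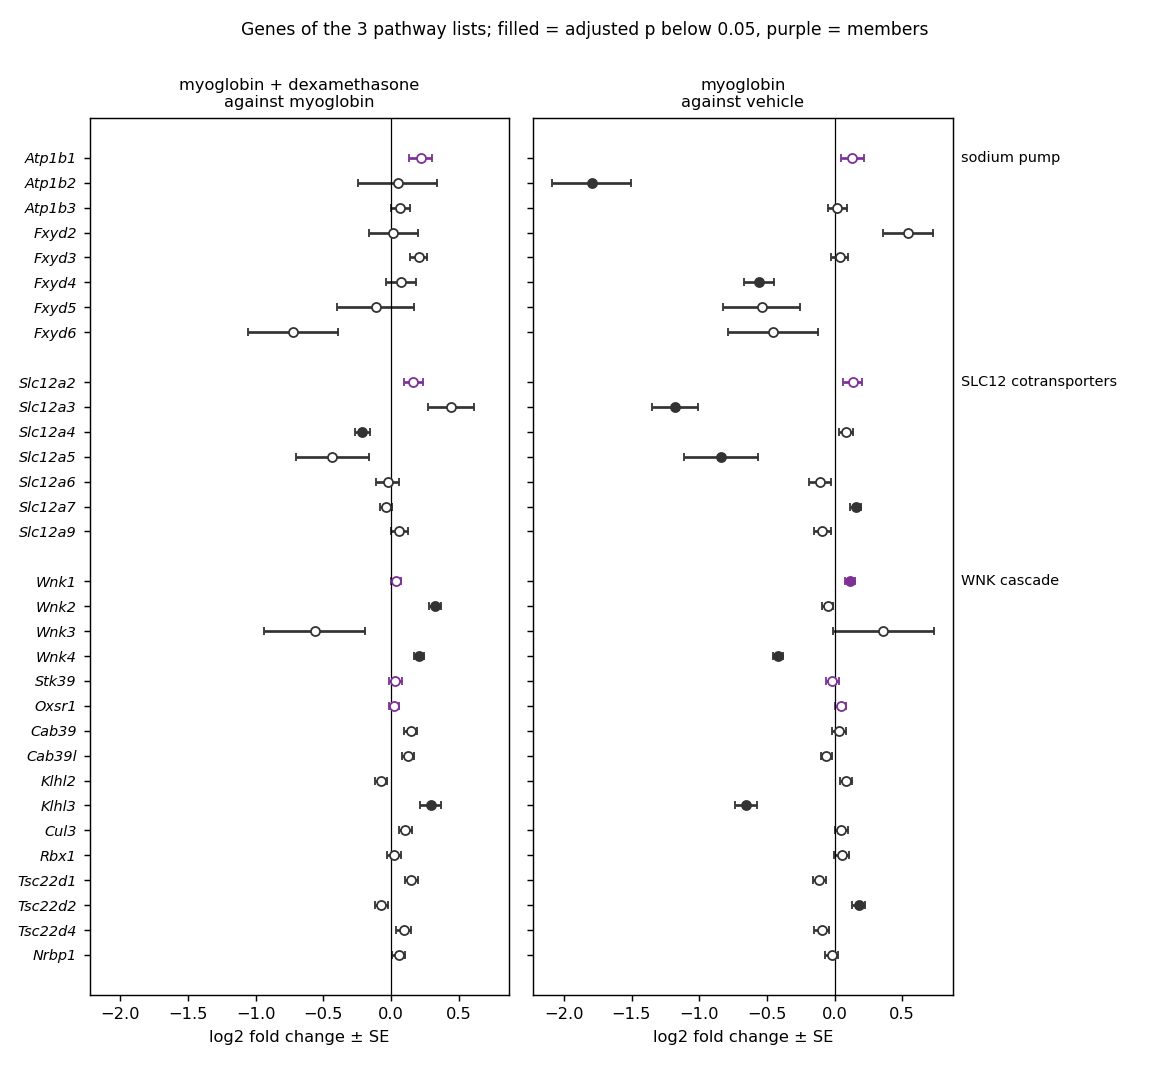
Log2 fold changes ± SE of tested genes of the sodium pump, SLC12 cotransporter and WNK lists, for dexamethasone added to myoglobin (left) and for myoglobin against vehicle (right). Filled points have an adjusted p below 0.05 and the members are purple. With myoglobin the members lie between -0.02 and 0.13, while Atp1b2 and Slc12a3 lie below -1.

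Among the upstream kinases, Wnk4 acts with Wnk1 on Slc12a3 in the distal convoluted tubule. Its RNA fell with myoglobin, where the Wnk1 value was above 0 with a call lost under the 3 other scalings. Wnk4 had 819, 867, 872 and 851 normalised read counts with both agents, 719, 747, 736 and 754 with myoglobin, and 1005, 1011, 990 and 951 with vehicle. The 3 groups did not overlap, with myoglobin lowest. Over all genes tested, such a separation in either direction was found in 25% for myoglobin against vehicle. The share was 13.2% for dexamethasone added and 28.6% for both agents against vehicle. Wnk4 fell by 0.42 ± 0.04 with myoglobin over vehicle (log2, SE, limma adjusted p = 7.17e-07) and rose by 0.21 ± 0.04 with dexamethasone added (adjusted p = 0.00313, and 0.11 with 0.226 after centring by coverage). Klhl3, the adaptor that marks WNK kinases for degradation, fell by 0.65 ± 0.08 with myoglobin (adjusted p = 2.42e-05). Klhl3 rose by 0.29 ± 0.08 with dexamethasone added (adjusted p = 0.0357), a call lost under 2 of 3 other scalings and on leaving out any of 6 single libraries (adjusted p up to 0.12). Wnk2 rose by 0.32 ± 0.04 with dexamethasone added (adjusted p = 0.000301) and differed by -0.05 with myoglobin (adjusted p = 0.468).

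Of the 16 genes of the WNK list, all tested, 2 rose and 2 fell with myoglobin over vehicle, 3 rose and 0 fell with dexamethasone added to myoglobin, and 4 rose and 2 fell with both agents over vehicle. In the same comparisons 8.71% of all genes were called higher and 9.62% lower, 3.08% and 3.9%, and 13.9% and 14.6%. The list's medians were 0.01, 0.07 and 0.05 (log2) in that order, against 0.00, 0.01 and 0.00 over all genes. Without replicate 4 of both agents the rises and falls were 2 and 3, 3 and 0, and 5 and 2. All genes then had 13.2% called higher and 12.8% lower, 4.04% and 4.78%, and 14.7% and 14.3%. The other gene that rose with myoglobin was Tsc22d2 (0.18 ± 0.05, limma adjusted p = 0.0207), of a family that binds WNK kinases, and it did not pass under the 3 other scalings (adjusted p 0.0699 to 0.0862).

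Among the SLC12 cotransporters, RNA calls went in both directions. Slc12a3 had 625, 722, 760 and 424 normalised read counts with both agents, 493, 505, 469 and 364 with myoglobin, and 1163, 1115, 1130 and 767 with vehicle. All myoglobin libraries lay below all vehicle libraries, a separation found in either direction in 25% of all genes tested. Replicate 4 was the lowest of each group. Slc12a3 fell by 1.18 ± 0.17 with myoglobin over vehicle (log2, SE, limma adjusted p = 0.000112). Its relative Slc12a2 differed by 0.13 and did not pass (adjusted p = 0.219). With dexamethasone added to myoglobin Slc12a3 differed by 0.44 (adjusted p = 0.131), and by 0.62 with a pass (adjusted p = 0.00924) without replicate 4 of both agents. Slc12a7, a potassium-chloride cotransporter that WNK signalling inhibits, rose by 0.16 ± 0.04 with myoglobin (adjusted p = 0.0178), a call lost without vehicle replicate 4 or myoglobin replicate 2 (adjusted p up to 0.0642). Slc12a4, another of that kind, fell by 0.21 ± 0.05 with dexamethasone added (adjusted p = 0.0256), a call lost without myoglobin replicate 1 or 2 or replicate 1 of both agents (up to 0.0756). Slc12a5, the potassium-chloride cotransporter known from neurons, fell by 0.84 ± 0.27 with myoglobin (adjusted p = 0.0434) at 14 to 23 counts against 32 to 41 with vehicle, and lost the call in 10 of 12 single-library omissions (up to 0.133). Of the 7 tested SLC12 genes, 1 rose and 2 fell with myoglobin over vehicle, 0 rose and 1 fell with dexamethasone added, and 1 rose and 2 fell with both agents over vehicle, with medians of -0.09, -0.02 and -0.13 (log2) against 0.00, 0.01 and 0.00 over all genes. The shares of all genes called higher and lower were 8.71% and 9.62%, 3.08% and 3.9%, and 13.9% and 14.6%. Without replicate 4 of both agents the rises and falls were 2 and 2, 1 and 1, and 1 and 2. The shares of all genes were then 13.2% and 12.8%, 4.04% and 4.78%, and 14.7% and 14.3%.

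Markers of distal segments moved beside these genes. Of the 6 tested markers of thick limb and distal convoluted tubule, which include Slc12a3 and Kcnj1, 1 rose and 4 fell with myoglobin over vehicle. Of all genes tested, 8.71% were called higher and 9.62% lower in this comparison. The 6 markers in the table summed to 3811 to 3956 with both agents, 2978 to 3381 with myoglobin and 3632 to 4407 with vehicle. The most abundant was Calb1, with 1600 to 1788 normalised read counts with myoglobin and 1301 to 1496 with vehicle. Slc12a1 and Pvalb of this list are not in the table, and no gene of it that is in the table was at 0 in all libraries. Of the 7 principal cell markers, 0 rose and 5 fell with myoglobin over vehicle, beside the same shares of all genes. Their sums were 1884 to 2143 with both agents, 1857 to 1992 with myoglobin and 2664 to 3010 with vehicle. Their part in the falls of Wnk4, Klhl3, Slc12a3 and the pump subunits was not tested.

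Channels and exchangers work beside NKCC1 and the pump in salt transport. Of 13 tested genes of this list, 1 rose and 4 fell with myoglobin over vehicle, 2 rose and 0 fell with dexamethasone added, and 4 rose and 3 fell with both agents over vehicle, with medians of -0.16, 0.12 and -0.04 (log2). Calls over all genes were 8.71% higher and 9.62% lower, 3.08% and 3.9%, and 13.9% and 14.6%, with medians of 0.00, 0.01 and 0.00. Without replicate 4 of both agents the rises and falls were 2 and 5, 4 and 0, and 3 and 4. Calls over all genes were then 13.2% higher and 12.8% lower, 4.04% and 4.78%, and 14.7% and 14.3%. Cftr, the apical chloride channel that secretes chloride loaded by NKCC1, had 146, 134, 141 and 109 normalised read counts with both agents, 164, 140, 128 and 145 with myoglobin, and 58, 47, 50 and 53 with vehicle. It rose by 1.45 ± 0.11 with myoglobin over vehicle (SE, limma adjusted p = 1.73e-07) and was the 1 rise of that list. The potassium channels Kcnj1 and Kcnj10, known from the distal nephron, fell by 1.08 ± 0.11 (adjusted p = 6.26e-06) and 1.51 ± 0.22 (adjusted p = 0.000153), and the chloride channel Clcn2 fell by 0.47 ± 0.11 (adjusted p = 0.00701). With dexamethasone added, Kcnq1 rose by 0.30 ± 0.05 (adjusted p = 0.00118).

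Among 10 tested genes of cell volume control, 1 rose and 2 fell with myoglobin over vehicle, 1 rose and 1 fell with dexamethasone added, and 0 rose and 1 fell with both agents over vehicle, with medians of 0.03, 0.01 and 0.01 (log2). All genes had 8.71% called higher and 9.62% lower, 3.08% and 3.9%, and 13.9% and 14.6%, and medians of 0.00, 0.01 and 0.00. Without replicate 4 of both agents the rises and falls were 3 and 2, 1 and 1, and 0 and 1. All genes then had 13.2% called higher and 12.8% lower, 4.04% and 4.78%, and 14.7% and 14.3%. Slc5a3, which imports the osmolyte myo-inositol, had 713, 780, 719 and 737 normalised read counts with both agents, 668, 650, 604 and 639 with myoglobin, and 866, 824, 759 and 803 with vehicle. It fell by 0.34 ± 0.05 with myoglobin over vehicle (SE, limma adjusted p = 9.2e-05) and rose by 0.20 ± 0.05 with dexamethasone added (adjusted p = 0.0177, lost without myoglobin replicate 3 or 4 or replicate 2 of both agents, up to 0.0624). Nfat5, the transcription factor of the osmotic response, fell by 0.18 ± 0.06 with myoglobin (adjusted p = 0.0351) and lost the call in 6 of 12 single-library omissions (up to 0.112). Lrrc8b, a subunit of the volume-regulated anion channel, rose by 0.20 ± 0.06 with myoglobin (adjusted p = 0.0233) and fell by 0.22 ± 0.06 with dexamethasone added (adjusted p = 0.0288), calls lost in 5 and 4 of 12 omissions (up to 0.0855 and 0.103).

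The genes whose pattern over the 12 libraries was most like that of Atp1b1 were Scd2, a stearoyl-CoA desaturase, and Ctsb, cathepsin B. Their log2 values, centred per gene, differed from those of Atp1b1 by a root mean square of 0.0219 and 0.0278, the smallest among 12814 protein-coding genes. Scd2 had 3355, 3288, 3093 and 4589 normalised read counts with both agents, 2928, 3132, 3185 and 3018 with myoglobin, and 2837, 2756, 2819 and 2845 with vehicle. Like Atp1b1, both were highest in replicate 4 with both agents, a value that enters the measure of likeness.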

How the data were processed

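RNA of 12 tubuloid libraries was sequenced, 4 per group. Per the submitters' processing notes, the build was mm10 and the tools were featureCounts 2.0.3, STAR 2.7.10a, DESeq2 1.36.0, Trimmomatic 0.39 and Picard 2.27.4. The deposited values are a rounded normalised score and not counts: the steps between values show that reads were scaled by 1 factor per library. A count test was therefore not used. Multiplying by these factors gave the estimated reads. Exonic lengths came from GENCODE M21, in which 20592 of 20819 genes (98.9%) have the same coordinates.

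Values were tested with limma-trend (limma 3.58.1, R 4.3.3) after adding 1 and taking log2, with 3 group terms over all 12 libraries, for the 14558 genes that reached 10 in 4 or more libraries. Two-sided p-values were adjusted (Benjamini-Hochberg) over all genes tested, and "rose" and "fell" mean an adjusted p below 0.05. Fold changes on this scale understate those of low genes. Intervals cover the spread between libraries. Ratios were tested with exact permutation tests. The script was tested on simulated data.

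The members and gene lists were chosen with earlier results of these data known. Besides the members, the text names up to 4 genes per list and comparison that passed with the smallest p, Atp1b3, 4 treatment checks and, for members that passed with a log2 change of at least 0.3, the 2 genes most alike. Some genes that the rule names are not reported here; counts over lists include them. Alternatives were other pseudocounts, filters and scalings, a replicate block, library weights, fits of 2 groups, omission of libraries and, added after seeing the data, centring within bins of coverage.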

Additional observations from a re-analysis of the deposited data

Results flagged for a closer look

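In 21 groups of 4 libraries (the 5 members and ratios between genes), 2 had a library whose gap to its nearest neighbour, divided by the range, exceeded Dixon's 95% critical value. Chance flags about 1 in 20 groups. The first was Slc12a2 with myoglobin and dexamethasone at 0.876, where replicate 4 had 2811 normalised read counts and the others 2126 to 2211. The same library had 2010 for Atp1b1, where the others had 1378 to 1491. The second was Atp1b1 with vehicle at 0.857, where replicate 1 had 1244 and the others 1216 to 1220, a gap that is small beside the difference of either treated group.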

How the results depend on the processing

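Across pseudocounts, the filter, scalings, library weights, 2-group fits, the replicate block, coverage centring and omissions, 355 of 390 values of the members were above 0 and 365 kept their side of the threshold. Many of these values repeat the main one. The filter, the block, 2-group fits and omission of a library outside the 2 groups compared cannot move a log2 value. The comparisons also share libraries, so the count of signs does not measure how firm the changes are. With library weights, in which replicate 4 of both agents had 0.148, 4314 genes were called with myoglobin over vehicle (main value 2669), and Atp1b1 (0.14, adjusted p = 0.0166) and Slc12a2 (0.15, 0.00502) passed. With only the compared groups fitted they also passed, at 0.13 (0.00453) and 0.13 (0.00577). Slc12a2 passed after quantile normalization at 0.12 (0.0334), and Atp1b1 after coverage centring at 0.083 (0.0314). Wnk1 did not pass with myoglobin over vehicle after upper-quartile scaling at 0.094 (0.0769), quantile normalization at 0.092 (0.148) or equal totals at 0.10 (0.0788), nor with both agents over vehicle after quantile normalization at 0.056 (0.351). With dexamethasone added to myoglobin, 1016 genes were called, against 639 with only 2 groups fitted and 1625 with library weights. The causes of these shifts were not tested.

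With the replicate number as a block, 1788 of the 14558 genes were called for dexamethasone added to myoglobin (749 higher, 1039 lower). For myoglobin over vehicle 3503 were called (1624 higher, 1879 lower), and no call of a member changed. Among the genes named, Slc12a3 (0.44, adjusted p = 0.000153) and Kcnj1 (0.27, 0.0263) passed with dexamethasone added when the block was used and did not without it, and the SLC12 list went to 1 rise and 1 fall, against 0 and 1 without the block. With both agents over vehicle, Nfat5 (-0.14, 0.0139) and Slc12a7 (0.12, 0.0404) likewise passed with the block. The block also gave 1 rise and 4 falls in the pump list and 3 rises and 2 falls in the volume list with myoglobin over vehicle, and 4 rises and 0 falls in the channel list with dexamethasone added. Same-numbered libraries of different groups had correlated deviations from the group means (median 0.161, lowest -0.0151, above 0.1 in 9 of 12 pairs), and 10 of 12 libraries correlated best with their own number, a hint from the data and not from the design.

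On omission of libraries, singly or by replicate number, genes called ranged from 1409 to 3794 for myoglobin over vehicle, 315 to 1284 for dexamethasone added and 2432 to 4225 for both agents over vehicle. Atp1b1 with myoglobin over vehicle ranged from 0.11 to 0.15, Slc12a2 from 0.12 to 0.16 and Wnk1 from 0.10 to 0.13, and Wnk1 with both agents over vehicle from 0.14 to 0.17, losing its call only without all libraries numbered 2 (adjusted p = 0.073). Each group had 4 libraries, and whether the estimated 3.26 M reads of replicate 4 with both agents bear on its deviation was not tested.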
